A study of Mus musculus with 4 samples.

Results

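Prehypertrophic and hypertrophic chondrocytes of the mouse embryonic hindlimb were picked out of single-cell transcriptomes by their own marker transcripts. A cell was taken where its raw UMIs (unique molecular identifiers, 1 per captured transcript molecule) of Ihh and Panx3 summed to 2 or more, where Col2a1 made up at least 30 of every 10000 UMIs, and where it held fewer than 50 UMIs of Spp1. The rule was applied to the E13.5 and E15.5 libraries, to cells in which 200 genes or more were found and mitochondrial UMIs did not exceed 10%. It found 398 E13.5 cells and 305 E15.5 cells, 703 of the 9958 cells kept in the series. They are called the Ihh/Panx3 chondrocytes from here on, and members in the plots. Inside each library they were set against chondrocytes with at least as much Col2a1 as the limit and no UMI of Ihh or Panx3, 780 at E13.5 and 954 at E15.5, called the reference chondrocytes.

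The series holds 4 libraries of hindlimb cells from C57BL/6 embryos, with no other genotype and no treatment named, 1 library per stage, the stages being E11.5, then E13.5, then E15.5, and last E18.5. For each stage the hindlimbs of several littermates were digested with collagenase and pronase, pooled, frozen, thawed, cleared of dead cells and captured on a 10x Chromium 3' system. Every stage is thus 1 pool from 1 litter, embryos cannot be told apart in it, and no p-value or replicate error can be given for any value. Intervals in parentheses are 95% intervals of counting error only.

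In a growing cartilage element, chondrocytes divide, leave the cell cycle, become prehypertrophic and then enlarge into hypertrophic cells that are replaced by bone. Prehypertrophic cells secrete Indian hedgehog, which maintains PTHrP production by cells near the joint, and PTHrP acting on its receptor delays further hypertrophy. Panx3 encodes a pannexin channel, Col10a1 the type X collagen of hypertrophic matrix, and Pth1r the PTHrP receptor.

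In GRCm38 coordinates, with genes as annotated by GENCODE vM21, Ihh lies at chr1:74945315-74951672 on the minus strand and Panx3 at chr9:37659902-37669235 on the minus strand. Col10a1 lies at chr10:34389981-34397085 on the plus strand and Pth1r at chr9:110722085-110747145 on the minus strand. All are protein-coding, and the libraries count the 3' end of a transcript, so no exon or isoform is resolved.

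The 250 bases upstream of the RefSeq start are shown for 3 genes on which the results turn: Col10a1, Runx2, a transcription factor of hypertrophy, and Uts2b, among the genes with the largest ratios. Sequences are from RefSeq on GRCm38.p6 and run 5′ to 3′ on the strand of the gene. Capitals mark TATAAA, searched on the strand of the gene, in Col10a1 and Uts2b, and ACCACA, the reverse complement of TGTGGT, in Runx2. The windows are chr10:34389731-34389980 (plus strand) for Col10a1, chr17:44814628-44814877 (minus strand) for Runx2 and chr16:27370240-27370489 (minus strand) for Uts2b.
Col10a1: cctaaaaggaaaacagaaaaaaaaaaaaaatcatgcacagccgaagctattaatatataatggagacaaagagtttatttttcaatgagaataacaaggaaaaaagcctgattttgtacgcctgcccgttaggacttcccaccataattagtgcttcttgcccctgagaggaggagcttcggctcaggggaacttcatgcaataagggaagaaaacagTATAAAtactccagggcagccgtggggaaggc
Runx2: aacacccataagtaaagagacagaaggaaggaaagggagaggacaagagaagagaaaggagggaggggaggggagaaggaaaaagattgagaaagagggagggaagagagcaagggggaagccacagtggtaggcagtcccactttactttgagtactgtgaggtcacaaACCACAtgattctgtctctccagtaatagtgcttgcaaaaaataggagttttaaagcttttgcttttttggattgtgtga
Uts2b: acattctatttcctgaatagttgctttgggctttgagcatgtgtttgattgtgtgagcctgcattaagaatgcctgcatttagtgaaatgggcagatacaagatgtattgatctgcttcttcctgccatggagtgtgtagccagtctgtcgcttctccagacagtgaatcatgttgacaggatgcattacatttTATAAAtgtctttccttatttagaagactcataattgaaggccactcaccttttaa

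In the Col10a1 window TATAAA stood 32 to 27 bases upstream of the start, and in the Uts2b window 56 to 51 bases upstream. In the Runx2 window ACCACA stood 80 to 75 bases upstream of the RefSeq start. The GENCODE vM21 gene begins further upstream, so 170 of the 250 bases of that window, ACCACA included, lie inside the gene as GENCODE annotates it. Entries were found for 24 of the 34 leading and marker genes looked up. TGTGGT, the letters of a RUNX motif searched on both strands, was in 3 of the 40 windows of these genes (7.5%), 1 each of Fcer2a, Runx2 and Sgms2, while 14.05% of 32851 windows genome-wide held it. TATAAA was also in 3 of the 40 (7.5%), of Col10a1, Fcer2a and Uts2b, while 7.59% of all windows held it, so neither was more frequent here than in all windows. A match describes these letters and is not a bound site.

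The Ihh/Panx3 chondrocytes made up 14.1% (12.9 to 15.5%) of the kept E13.5 cells and 11.7% (10.5 to 13.04%) of the kept E15.5 cells. As a share of all chondrocytes by the Col2a1 limit, they were 28.2% (25.9 to 30.7%) of 1409 cells at E13.5 and 20.9% (18.9 to 23.1%) of 1456 cells at E15.5. The same rule found 0 cells at E11.5, where only 3 cells met the limits for reference chondrocytes. These are shares of captured cells after digestion and freezing, and not of the tissue.

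A raw count of 2 UMIs is easier to reach in deeper cells. The Ihh/Panx3 chondrocytes held a median of 19576.5 UMIs at E13.5 and 14806 at E15.5, against 12578.5 and 10313 in reference chondrocytes of these libraries. Their median number of genes was 4067 and 3483, against 3178.5 and 2818.5. Levels are therefore given as counts-per-million, the UMIs of a gene scaled to the UMIs of the group (CPM), and shares of cells with a UMI also after thinning every cell to 5000 UMIs. The E15.5 and E13.5 libraries shared 14 cell barcodes, none of them between the cells chosen in both.

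The values that chose the cells are given as description. Ihh plus Panx3 had a median of 8 UMIs per chosen cell at E13.5 and 7 at E15.5, with 95 and 85 in the highest cell. The cells with exactly 2 UMIs numbered 78 and 55, and those just outside, with 1 UMI, 230 and 183. At E13.5 the Pth1r level was 155 CPM in cells with exactly 2 UMIs and 99.4 CPM in those with 1. At E15.5 it was 130 CPM with 2 UMIs and 119 CPM with 1. Sp7, which encodes a transcription factor of bone and hypertrophic cartilage, stood at 15.9 CPM with 2 UMIs and 8.51 CPM with 1 at E13.5, and at 24.3 and 6.78 CPM at E15.5. Both levels were higher in the cells just inside the limit than in those just outside, though Pth1r at E15.5 only slightly. Col10a1 was not: it stood at 5.06 CPM with 2 UMIs and 5.05 CPM with 1 at E13.5. At E15.5 it was lower inside the limit, at 16.2 CPM with 2 UMIs and 19.2 CPM with 1. Cells with 20 or more UMIs of Ihh plus Panx3 held more Pth1r, at 1017 CPM at E13.5 and 1105 CPM at E15.5.

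Col2a1, the main collagen of cartilage, had a median of 78.2 per 10000 UMIs in chosen cells at E13.5 and of 104 at E15.5. Most chosen cells held no UMI of Spp1, which encodes the bone matrix protein osteopontin: 389 of 398 at E13.5 and 181 of 305 at E15.5. The limit on Spp1 left out 1 cell at E13.5, with 127 Spp1 UMIs, and 14 cells at E15.5, the lowest with 61. These Spp1-high cells are set beside the chosen ones where hypertrophy genes are described.

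The label was checked on Pth1r and Col10a1, the markers that the rule did not use, and held for Pth1r in most cells. Pth1r was found in 95.5% of Ihh/Panx3 chondrocytes and 53.6% of reference chondrocytes at E13.5, and in 93.8% and 51.5% at E15.5. After thinning, these shares stood at 68.1% and 26.4% at E13.5 and at 71.4% and 32.2% at E15.5. In endothelial, macrophage, muscle and epithelial cells of the same libraries, which should lack Pth1r, a UMI was found in 11.4% of cells at E13.5 and in 9.87% at E15.5, at median depths of 12161 and 11928.5 UMIs. Pth1r was thus above that level of free RNA in both kinds of chondrocyte.

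For Col10a1 the label held in part of the cells. Col10a1 was found in 32.4% of Ihh/Panx3 chondrocytes and 7.05% of reference chondrocytes at E13.5, and in 53.8% and 18.7% at E15.5. Thinned to equal depth, the shares stood at 19.4% and 2.47% at E13.5 and at 36.0% and 9.91% at E15.5. The cells of the 4 other types had a Col10a1 UMI in 4.70% at E13.5 and 16.5% at E15.5, or 1.89% and 6.44% once thinned, so the reference shares lie close to free RNA. Most of the chosen chondrocytes had no Col10a1 UMI at the thinned depth, which does not show the transcript to be absent from them.

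**Figure D1:**
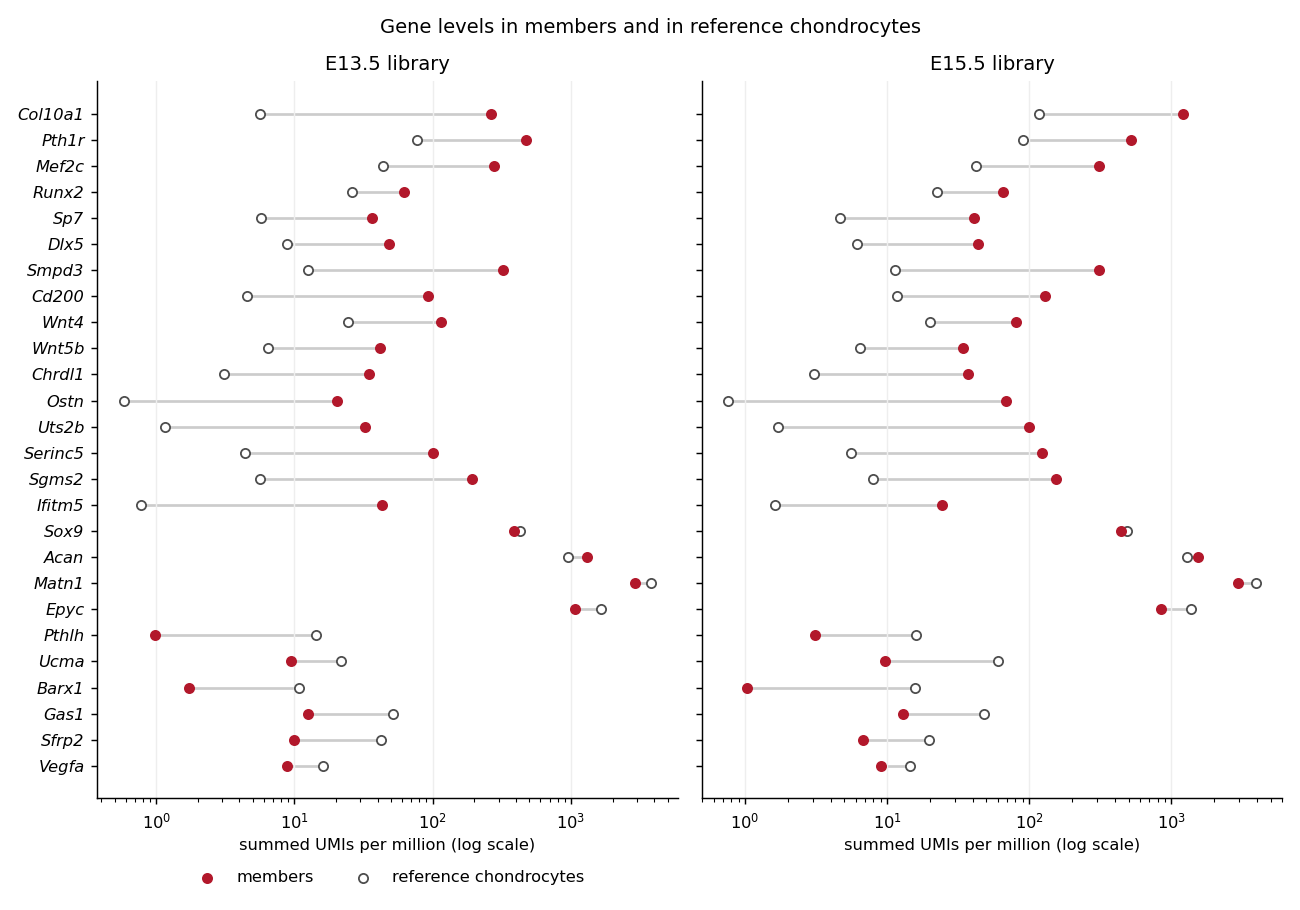
Level of 26 genes in members (filled) and reference chondrocytes (open) of the E13.5 and E15.5 libraries, as CPM on a log scale, 1 library per stage and no error bars. Hypertrophy genes such as Pth1r (474 against 76.8 CPM at E13.5) lie to the right in members, Sox9 nearly coincides, and Pthlh, Ucma and Barx1 lie to the left.

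Across all genes, ratios of CPM in Ihh/Panx3 chondrocytes over reference chondrocytes were read by size. A gene was called past 2-fold with a ratio of at least 2 either way and 20 or more UMIs in both groups together, leaving out the 4 genes of the rule. At E13.5, 422 of 11890 genes were higher (3.55%) and 519 lower (4.37%). At E15.5, 427 of 11832 were higher (3.61%) and 638 lower (5.39%). Of 11550 genes counted in both libraries, 256 were higher in both (2.22%), 220 lower in both (1.9%), and 4 past the fold in opposite directions. The genes higher in both were 67.5% of those higher at E13.5 and 62.9% of those higher at E15.5, and the genes lower in both were 47.3% and 39.1%. At E18.5, outside the rule, the same limits found 27 cells, and 416 of 7505 genes were higher (5.54%) and 1043 lower (13.9%) against the reference of that library. Over all counted genes the log2 ratio had a median of -0.04 at E13.5 and -0.05 at E15.5. Because the rule chose the cells on transcripts of the same cells, these ratios describe the chosen cells and test nothing.

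**Figure D2:**
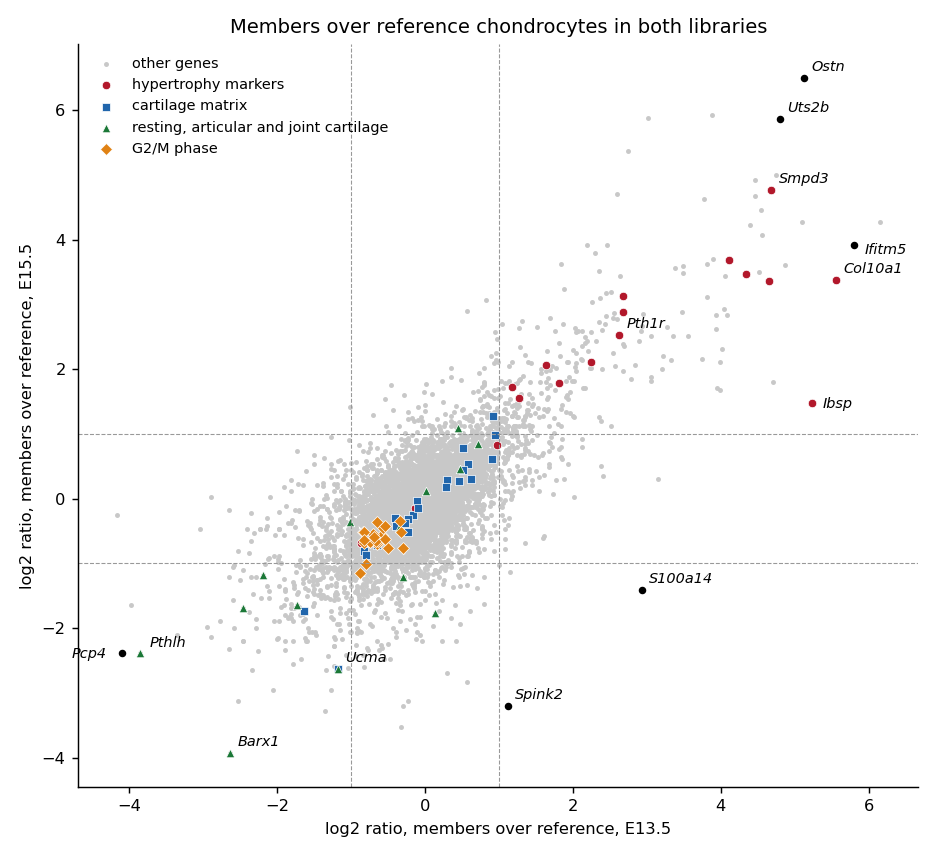
Log2 ratio of CPM in members over reference chondrocytes at E13.5 (x axis) and E15.5 (y axis), 1 point per gene with at least 20 UMIs in both libraries, dashed lines at 2-fold. Hypertrophy markers lie at the upper right, Pthlh and Barx1 at the lower left, and S100a14 and Spink2 among the 4 genes past the fold in opposite directions.

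Of the hypertrophy markers, 14 of the 17 counted in both libraries were higher in both and 0 were lower in both, with median log2 ratios of 2.63 at E13.5 and 2.07 at E15.5. This list holds Col10a1 and Pth1r, the marker genes that gave these cells their label. At E13.5 Pth1r stood at 474 CPM in Ihh/Panx3 chondrocytes and 76.8 CPM in reference chondrocytes (log2 ratio 2.63). At E15.5 it stood at 519 and 90.04 CPM (2.53). The receptor was thus about as high in the chosen cells of both libraries.

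Col10a1 stood at 264 CPM in Ihh/Panx3 chondrocytes and 5.61 CPM in reference chondrocytes at E13.5 (log2 ratio 5.56). At E15.5 it stood at 1214 and 117 CPM (3.38). These sums rest on few cells: 10 cells held 56.2% of the 2146 Col10a1 UMIs of the chosen cells at E13.5, and 10 held 76.9% of 5906 at E15.5. Without those 10 cells the log2 ratio was 4.41 at E13.5 and 1.33 at E15.5. In the E15.5 reference, 6 cells with 50 or more Spp1 UMIs held 85.1% of its 1232 Col10a1 UMIs, and against the other 948 cells, at 17.5 CPM, the log2 ratio was 6.12. The ratio was above 2-fold in each of these settings, and its size at E15.5 moved with the few cells counted.

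Alpl, the tissue-nonspecific alkaline phosphatase of mineralising cells, stood at 9.97 CPM in Ihh/Panx3 chondrocytes and 0.58 CPM in reference chondrocytes at E13.5 (log2 ratio 4.10), and at 17.1 and 1.33 CPM at E15.5 (3.68). A UMI of it was found in only 9.55% of the chosen cells at E13.5 and in 10.2% at E15.5. Without the 10 cells with most Col10a1 its log2 ratio was 3.39 at E13.5 and 2.66 at E15.5. Alpl was thus a transcript of a minority of these cells at this depth.

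Smpd3, the neutral sphingomyelinase whose loss impairs skeletal mineralisation in mice, was found in most of the chosen cells. It stood at 320 CPM in Ihh/Panx3 chondrocytes and 12.5 CPM in reference chondrocytes at E13.5, and at 308 and 11.3 CPM at E15.5 (log2 ratios 4.68 and 4.77). It was found in 62.1% of the chosen cells at E13.5 and in 54.4% at E15.5, and its ratio hardly moved without the 10 cells with most Col10a1 (4.64 and 4.69).

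Cd200, a surface glycoprotein, stood at 92.1 CPM in Ihh/Panx3 chondrocytes and 4.55 CPM in reference chondrocytes at E13.5, and at 130 and 11.8 CPM at E15.5. Cdkn1a, the cell cycle inhibitor p21, stood at 72.7 and 20.7 CPM at E13.5 and at 77.1 and 22.3 CPM at E15.5. Prkg2, a cGMP-dependent kinase needed for long bone growth, had log2 ratios of 1.63 and 2.07, and Scin, an actin-severing protein, 1.17 and 1.72. Loxl4, a lysyl oxidase, had log2 ratios of 4.65 and 3.37, and Wnt11, a WNT ligand, 2.24 and 2.11. These 6 genes were past 2-fold in both libraries.

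Some markers of late hypertrophy were not past 2-fold higher. Mmp13, the collagenase of terminal hypertrophic cartilage, had 1 UMI in Ihh/Panx3 chondrocytes and 0 in reference chondrocytes at E13.5, and 27 and 74 UMIs at E15.5. These E15.5 counts come from groups of unlike depth, 4866373 and 10539416 UMIs. Scaled to depth, its E15.5 ratio was 0.773 against reference chondrocytes of like depth. Against those with fewer than 50 Spp1 UMIs it was 1.29 (0.771 to 2.13). Its share of cells at E15.5, 7.87% in the chosen cells, was close to the 6.65% of the 4 other cell types. Vegfa, the vascular growth factor, stood at 8.87 CPM in Ihh/Panx3 chondrocytes and 16.2 CPM in reference chondrocytes at E13.5, and at 9.04 and 14.5 CPM at E15.5, short of 2-fold lower. Slc12a2, an ion cotransporter, had a log2 ratio of -0.14 in both libraries. Mmp13 was high in the Spp1-high cells that the rule left out.

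Ibsp, bone sialoprotein, shows how few cells can carry a sum. It stood at 18.2 CPM in Ihh/Panx3 chondrocytes and 0.484 CPM in reference chondrocytes at E13.5 (log2 ratio 5.24), and at 47.3 and 17.0 CPM at E15.5 (1.48). Without the 10 cells with most Col10a1 the log2 ratio was 3.53 at E13.5 and -3.13 at E15.5, where 9 Ibsp UMIs were left in the chosen cells. Against reference chondrocytes with fewer than 50 Spp1 UMIs, with all chosen cells kept, it was 4.71 at E15.5. Ibsp was thus high in a few of the chosen cells and in the Spp1-high reference cells of the E15.5 library.

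Of the transcription factors of hypertrophy, 8 of 19 counted in both libraries were higher in both and 0 were lower in both, with median log2 ratios of 0.81 and 0.83. Runx2, a main driver of hypertrophy, stood at 62.4 CPM in Ihh/Panx3 chondrocytes and 26.02 CPM in reference chondrocytes at E13.5, and at 65.8 and 22.4 CPM at E15.5. Sp7 (osterix), which acts with Runx2 in bone and cartilage, stood at 36.4 and 5.71 CPM at E13.5 and at 40.7 and 4.65 CPM at E15.5. Mef2c, which activates Col10a1, stood at 279 and 43.7 CPM at E13.5 and at 312 and 42.1 CPM at E15.5. In cells of the 4 other types Mef2c stood at 81.0 and 95.6 CPM, above its level in reference chondrocytes.

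3 Dlx homeobox genes, regulators of limb skeletal development, were also higher in both libraries. Dlx5 stood at 48.3 CPM in Ihh/Panx3 chondrocytes and 8.90 CPM in reference chondrocytes at E13.5, and at 43.6 and 6.17 CPM at E15.5. Dlx6, its genomic neighbour, had log2 ratios of 3.06 and 2.52, and Dlx3 2.84 and 2.07. Foxa2, a forkhead factor of hypertrophy, had log2 ratios of 1.57 and 1.62 on 21 and 37 UMIs in the chosen cells, and Hey1, a Notch target, stood just past the limit (1.00 and 1.03). Runx3 stood just inside 2-fold in both libraries (0.97 and 0.83), as did Sik3, a kinase that releases Mef2 factors from histone deacetylases (0.81 and 0.83).

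The chondrogenic factors were mostly within 2-fold. None of the 11 counted in both libraries was past 2-fold in both in either direction, and the median log2 ratios were -0.35 and -0.14. Sox9, the master regulator of cartilage, stood at 390 CPM in Ihh/Panx3 chondrocytes and 425 CPM in reference chondrocytes at E13.5, and at 441 and 484 CPM at E15.5. Sox5 and Sox6, its partners, had log2 ratios of -0.53 and -0.49 at E13.5 and -0.45 and -0.47 at E15.5. All were short of 2-fold lower.

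The hedgehog and PTHrP list split by role, with 1 of 19 genes counted in both libraries higher in both, Pth1r, and 5 lower in both. Pthlh, which encodes PTHrP, stood at 0.985 CPM in Ihh/Panx3 chondrocytes and 14.2 CPM in reference chondrocytes at E13.5 (8 and 147 UMIs), and at 3.08 and 16.0 CPM at E15.5 (15 and 169 UMIs). Against reference chondrocytes of like depth the log2 ratio of Pthlh was -2.46 at E13.5 in place of -3.85, and -1.95 at E15.5 in place of -2.38. The ligand was thus lower in the cells in which its receptor was higher, and how far at E13.5 depended on the reference.

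The 4 other genes lower in both libraries were hedgehog co-receptors and modulators. Gas1, a hedgehog co-receptor, stood at 12.4 CPM in Ihh/Panx3 chondrocytes and 51.5 CPM in reference chondrocytes at E13.5, and at 12.9 and 47.8 CPM at E15.5. Boc, another co-receptor, had log2 ratios of -1.58 and -2.003, Hhip, which binds and inhibits hedgehog ligands, -1.57 and -1.28, and Scube2, which helps their release, -1.27 and -2.95. Ptch1, the hedgehog receptor and a target of the pathway, stood at 5.29 CPM in Ihh/Panx3 chondrocytes and 4.35 CPM in reference chondrocytes at E13.5 and at 4.93 and 3.89 CPM at E15.5. Gli1, another target, had log2 ratios of -0.46 and -0.64. Ptch1 and Gli1 were thus not past 2-fold in either direction, while Hhip, as given above, was lower in both libraries.

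**Figure D3:**
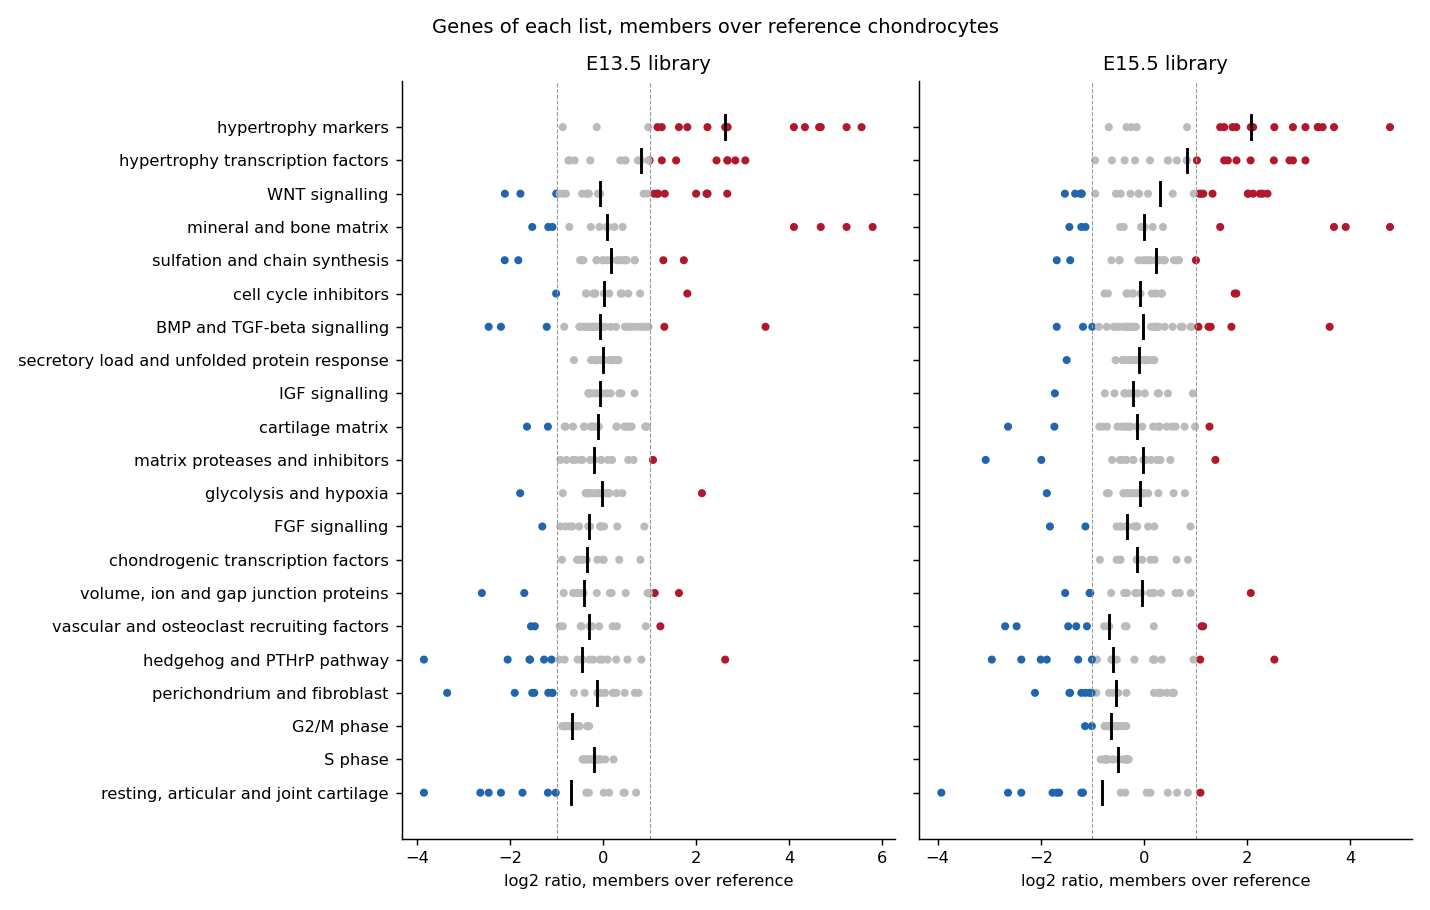
Log2 ratio of CPM in members over reference chondrocytes for the genes of each list shown at E13.5 and E15.5, 1 point per counted gene, red or blue past 2-fold, black bar at the list median. The hypertrophy list has its median at 2.63 and 2.07, the G2/M list at -0.66 and -0.63, and the list of resting, articular and joint cartilage at -0.69 and -0.82.

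WNT genes had 8 of 23 counted genes higher in both libraries and 2 lower in both, with median log2 ratios of -0.06 and 0.32. The ligands Wnt4, at 114 CPM in Ihh/Panx3 chondrocytes and 24.4 CPM in reference chondrocytes at E13.5 and at 81.2 and 20.1 CPM at E15.5, and Wnt5b, at 41.3 and 6.48 CPM and at 33.9 and 6.45 CPM, were among the higher. So were the secreted inhibitors Wif1 (log2 ratios 2.001 and 2.3) and Frzb (1.18 and 1.11), the target Axin2 (1.10 and 1.33) and the nuclear factor Tcf7 (2.24 and 2.02). The inhibitor Sfrp2 (-2.11 and -1.53) and the nuclear factor Lef1 (-1.78 and -1.34) were lower. The ligands past the fold in both libraries were higher, while inhibitors and nuclear factors went in both directions.

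Among 32 BMP and TGF-beta genes counted in both libraries, 1 was higher in both and 2 were lower in both. Chrdl1, a secreted BMP antagonist, stood at 34.8 CPM in Ihh/Panx3 chondrocytes and 3.09 CPM in reference chondrocytes at E13.5, and at 36.8 and 3.04 CPM at E15.5. Another antagonist, Grem1, was lower (log2 ratios -2.46 and -1.69), as was the joint ligand Gdf5 (-2.20 and -1.18). None of 14 FGF and none of 13 IGF genes was past 2-fold in both libraries, although Fgfr3, the receptor that restrains chondrocyte growth, came near it, at 344 CPM in Ihh/Panx3 chondrocytes and 186 CPM in reference chondrocytes at E13.5 and at 343 and 184 CPM at E15.5.

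Cartilage matrix genes were mostly within 2-fold, with 0 of 23 higher in both and 2 lower in both (median log2 ratios -0.10 and -0.14). Hapln1, which links aggrecan to hyaluronan, stood at 2142 CPM in Ihh/Panx3 chondrocytes and 1118 CPM in reference chondrocytes at E13.5, and at 2351 and 1185 CPM at E15.5. Comp, Matn3 and Acan also leaned higher, with log2 ratios between 0.27 and 0.90 over both libraries. Epyc and Matn1 leaned lower, between -0.72 and -0.40. The 2 genes lower in both were Ucma (-1.19 and -2.64), a secreted protein of resting cartilage, and Fmod (-1.64 and -1.74), a small leucine-rich proteoglycan.

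Mineral and bone matrix genes had 4 of 14 higher in both libraries and 3 lower in both. Besides Alpl, Ibsp and Smpd3, the fourth was Ifitm5, a membrane protein of mineralising bone cells, at 43.0 CPM in Ihh/Panx3 chondrocytes and 0.774 CPM in reference chondrocytes at E13.5 and at 24.2 and 1.61 CPM at E15.5. Its log2 ratio was 5.66 and 3.79 without the 10 cells with most Col10a1. Col1a1, the type I collagen of bone and perichondrium, was lower (-1.18 and -1.14). Fibroblast and perichondrium markers as a whole summed to 2252 CPM in Ihh/Panx3 chondrocytes and 4172 CPM in reference chondrocytes at E13.5 and to 2588 and 4792 CPM at E15.5, with 7 of 19 lower in both. Their part in these ratios was not tested.

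Genes of resting, articular and joint cartilage were lower, 6 of 14 in both libraries and 0 higher in both, with medians of -0.69 and -0.82. Barx1, a joint homeobox factor, stood at 1.72 CPM in Ihh/Panx3 chondrocytes and 10.7 CPM in reference chondrocytes at E13.5, and at 1.03 and 15.7 CPM at E15.5. The reference chondrocytes thus held transcripts of these zones, and the ratios set the chosen cells against such a mixture.

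G2/M genes, which mark dividing cells, leaned lower. The 23 G2/M genes summed to 1754 CPM in Ihh/Panx3 chondrocytes and 2736 CPM in reference chondrocytes at E13.5, and to 1931 and 2887 CPM at E15.5, with 0 past 2-fold in both libraries. Top2a, a topoisomerase of dividing cells, stood at 127 and 202 CPM at E13.5 and at 130 and 204 CPM at E15.5. The cell cycle inhibitor Cdkn1c (p57) leaned higher, at 6827 CPM in Ihh/Panx3 chondrocytes and 5251 CPM in reference chondrocytes at E13.5 and at 6042 and 4748 CPM at E15.5. S phase genes had medians of -0.19 and -0.50 with 0 of 20 past 2-fold in both libraries.

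In the other lists few genes passed 2-fold in both libraries. Of 24 secretory genes none did. Chst15, a chondroitin sulfotransferase, was higher (log2 ratios 1.74 and 1.01), and the sulfotransferase Chst3 (-1.82 and -1.69) and the sulfatase Sulf1 (-2.11 and -1.43) were lower. Adamts14, a procollagen protease (1.07 and 1.38), and Ctgf, a matricellular factor known in hypertrophic cartilage (1.23 and 1.11), were higher. Egln3, an oxygen-sensing hydroxylase (-1.78 and -1.89), Stc1, a secreted glycoprotein (-1.69 and -1.04), the potassium channel Kcnk2 (-2.61 and -1.06) and Sema3c, a semaphorin (-1.47 and -1.31), were lower.

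Markers of other cell types had low summed levels. Endothelial markers summed to 49.9 CPM in Ihh/Panx3 chondrocytes and 52.8 CPM in reference chondrocytes at E13.5 and to 58.2 and 59.3 CPM at E15.5. Macrophage markers summed to 32.9 and 31.4 CPM at E13.5 and to 25.5 and 65.7 CPM at E15.5, where C1qa had 0 UMIs in the chosen cells. Osteoclast markers summed to 10.1 and 15.6 CPM at E13.5 and to 9.04 and 29.3 CPM at E15.5. Muscle markers summed to 72.9 and 34.1 CPM at E13.5 and to 52.6 and 40.04 CPM at E15.5. Most of the muscle sum at E13.5 was Tnni1, a troponin, with 439 of the 592 UMIs in the chosen cells, while the defining regulator Myod1 had 3. Tnni1 was the muscle gene past 2-fold in both libraries (log2 ratios 1.91 and 1.57), and Perp the epithelial one that was higher (1.92 and 2.10). The part of other cell types in these ratios was not tested.

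The genes with the largest ratios, ranked by the weaker of both libraries, were led by secreted peptides. Ostn, which encodes the peptide osteocrin, stood at 20.3 CPM in Ihh/Panx3 chondrocytes and 0.580 CPM in reference chondrocytes at E13.5 (35.01-fold), and at 68.6 and 0.759 CPM at E15.5 (90.4-fold). Uts2b, which encodes a urotensin peptide, stood at 32.3 and 1.16 CPM at E13.5 (27.8-fold) and at 98.8 and 1.71 CPM at E15.5 (57.9-fold). Both were found in a minority of the chosen cells: Ostn in 7.79% at E13.5 and in 18.03% at E15.5, and Uts2b in 12.8% and 25.6%. In reference chondrocytes their shares were between 0.641% and 1.47%. In the 4 other cell types Ostn was found in 0.447% of cells at E13.5 and in 0.644% at E15.5. Ostn (chr16:27307489-27351212, plus strand) and Uts2b (chr16:27353322-27370239, minus strand) lie close together with their 3' ends facing each other. Whether reads of either gene were counted to the other was not tested.

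Smpd3 was itself among the largest ratios. Sgms2, a sphingomyelin synthase, stood at 191 CPM in Ihh/Panx3 chondrocytes and 5.61 CPM in reference chondrocytes at E13.5 (34.1-fold), and at 154 and 7.97 CPM at E15.5 (19.3-fold). Serinc5, a membrane protein of the serine incorporator family, stood at 101 and 4.35 CPM at E13.5 and at 123 and 5.60 CPM at E15.5.

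Others in the leading 15 were Aldh1a3, which makes retinoic acid (23.4-fold and 16.8-fold), Baiap2l2, a membrane-bending protein (13.6-fold and 24.7-fold), Mustn1 (21.96-fold and 25.6-fold), Gcnt2, a glycan-branching enzyme (14.8-fold and 60.6-fold), and Ifitm5 (55.5-fold and 15.0-fold). Omd, the matrix proteoglycan osteomodulin, had 21 UMIs in Ihh/Panx3 chondrocytes and 1 in reference chondrocytes at E13.5, and 88 and 6 at E15.5. Fcer2a, known as an IgE receptor, had 33 and 2 UMIs at E13.5 and 26 and 0 at E15.5. Tnfaip2 had 52 UMIs in the chosen cells at E13.5, with 42 at E15.5, against 0 in the reference, at least 22.1-fold and 30.3-fold higher with 3 UMIs put in place of 0. The transcript 4932435O22Rik, also among the 15, had 35 and 0 UMIs at E13.5 and 18 and 3 at E15.5.

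Among the 10 smallest ratios were those of Barx1, Galnt16, Pcp4, Pthlh, 1500015O10Rik, Pla2g7, Saa2, Pax9 and Rassf9. Pcp4, a calmodulin-binding peptide, stood at 0.739 CPM in Ihh/Panx3 chondrocytes and 12.7 CPM in reference chondrocytes at E13.5, and at 2.05 and 10.7 CPM at E15.5. The transcript 1500015O10Rik stood at 5.91 and 29.9 CPM at E13.5 and at 19.7 and 123 CPM at E15.5. Pla2g7, a lipase that inactivates platelet-activating factor, had ratios of 0.209 and 0.196. Saa2, a serum amyloid protein with near-identical copies that counting could split, had ratios of 0.182 and 0.217. Galnt16, Pax9 and Rassf9 had at most 5 UMIs each in the chosen cells of either library. With the limit of 1 UMI of Ihh plus Panx3, Galnt16 and Rassf9 were short of 2-fold lower at E13.5, at log2 ratios of -0.66 and -0.86.

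The chosen cells varied among themselves, and Ihh and Panx3 were not always found together. Both were found in 272 cells at E13.5 and in 208 at E15.5, Ihh alone in 72 and 71, and Panx3 alone in 54 and 26. At E13.5 Smpd3 stood at 30.3 CPM in the cells with Ihh alone, 421 CPM in those with both and 64.0 CPM in those with Panx3 alone. At E15.5 it stood at 15.9, 420 and 53.4 CPM in the same order. Smpd3 was highest where both transcripts were found. So was Pth1r, at 286, 575 and 134 CPM at E13.5 and at 228, 649 and 122 CPM at E15.5. These classes are made from the counts of the rule, and cells with both held more of them. At E13.5 cells with both held 435 CPM of Ihh and 373 CPM of Panx3. Cells with Ihh alone held 342 CPM of Ihh, and those with Panx3 alone 135 CPM of Panx3. The classes thus do not separate finding both transcripts from holding more of them, which was not tested.

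Cells with Panx3 alone had little Col10a1 and much Epyc, a proteoglycan of growth cartilage. Col10a1 stood at 7.39 CPM in them at E13.5 and 28.9 CPM at E15.5, and Epyc at 1706 and 1716 CPM, while cells with Ihh alone held Epyc at 511 and 635 CPM. Uts2b had 1 UMI in the cells with Panx3 alone at E13.5 and none at E15.5, and stood at 83.9 and 56.0 CPM in those with Ihh alone. The classes were set after the values were seen. Cells with Ihh alone were shallower, with a median of 12869 UMIs at E13.5, while those with both had 20588.5 and those with Panx3 alone 22463.

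The chosen cells were also grouped by their Col10a1 UMIs. Cells with 0, 1 to 4 and 5 or more Col10a1 UMIs numbered 269, 72 and 57 at E13.5 and 141, 91 and 73 at E15.5, with alike median depths (19888, 19753.5 and 18885 UMIs, and 13877, 14854 and 16161). Pth1r stood at 275, 501 and 1351 CPM over these groups at E13.5 and at 250, 314 and 1207 CPM at E15.5. Mef2c stood at 189, 310 and 652 CPM at E13.5 and at 183, 251.4 and 597 CPM at E15.5. Both were higher in the groups with more Col10a1 in both libraries. Ihh, which the rule used, stood at 231, 418 and 866 CPM at E13.5 and at 259, 357 and 952 CPM at E15.5, as a description of the cells chosen. The limits were set after the values were seen.

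Other genes stood apart mainly in the last group. Cdkn1a stood at 34.96, 56.8 and 264 CPM at E13.5 and at 34.8, 34.7 and 197 CPM at E15.5. Cd200 stood at 48.1, 85.6 and 301 CPM at E13.5 and at 61.2, 82.9 and 299 CPM at E15.5. Hapln1 stood at 1780, 2134 and 3803 CPM at E13.5 and at 1796, 2007 and 3680 CPM at E15.5. Sox9 stayed near its level, at 395, 360 and 403 CPM at E13.5 and at 423, 456 and 454 CPM at E15.5. Epyc was lowest in the last group, at 1223, 944 and 475 CPM at E13.5 and at 939, 1104 and 378 CPM at E15.5. Uts2b did not follow in both libraries, at 31.5, 51.3 and 12.5 CPM at E13.5 and at 68.7, 48.2 and 208 CPM at E15.5.

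**Figure D4:**
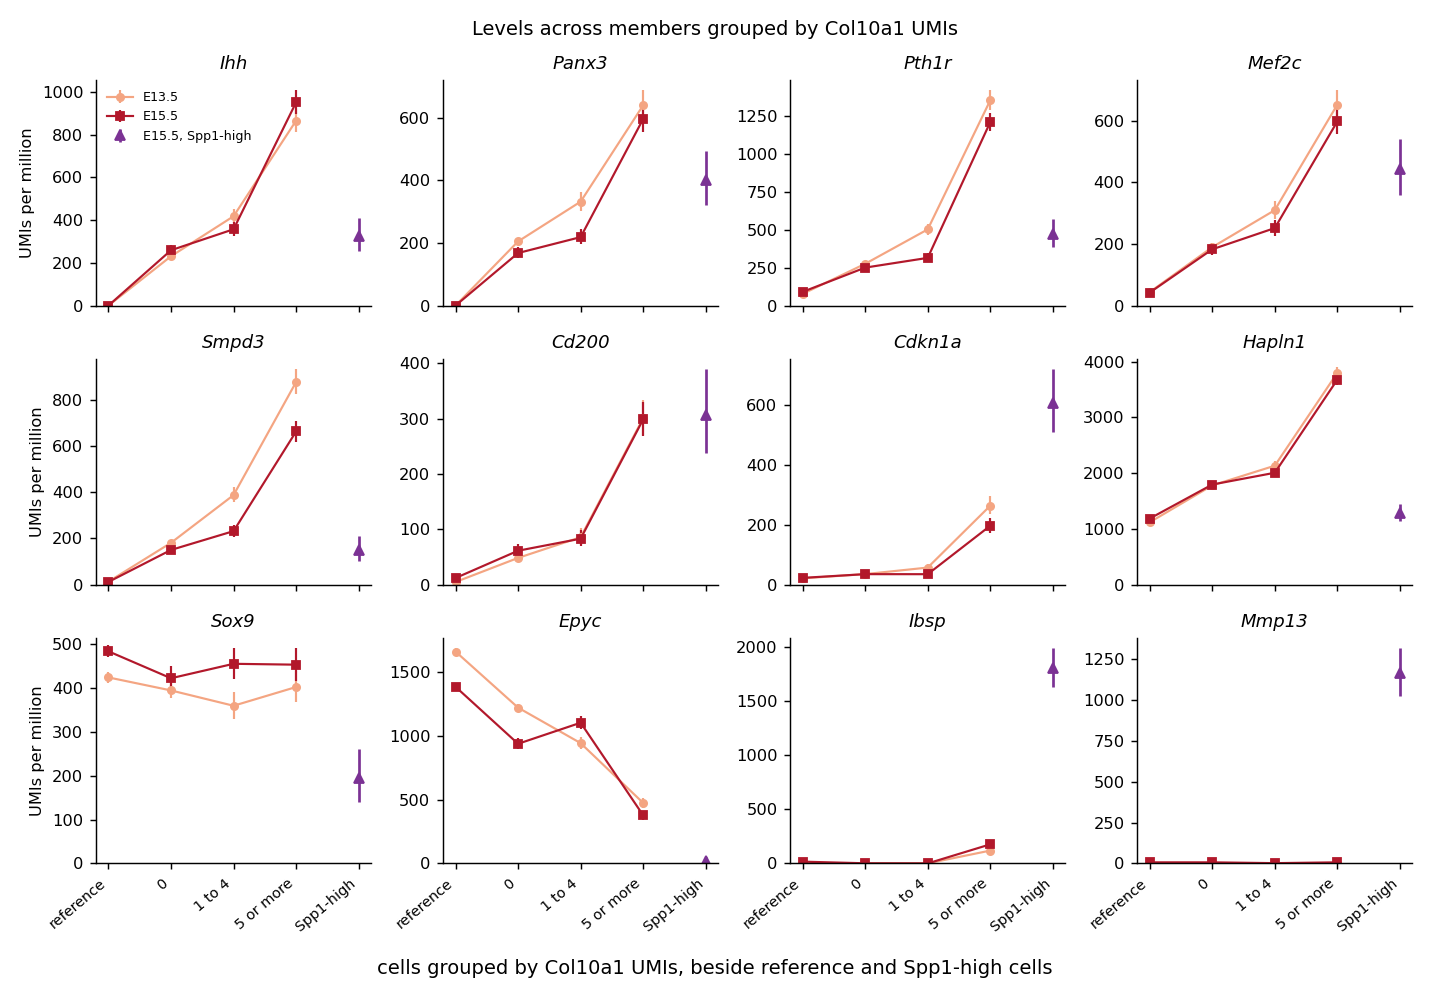
CPM of 12 genes in reference chondrocytes, in members with 0, 1 to 4 and 5 or more Col10a1 UMIs, and in the Spp1-high cells of E15.5, with 95% Poisson intervals of counting error only. Ihh and Panx3 are 0 in the reference by the rule, Pth1r reaches 1351 CPM at E13.5 and 1207 at E15.5 in the last group of members, and Mmp13 is high in the Spp1-high cells, at 1165 CPM.

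Fewer cells of the last group held G2/M transcripts. With 5 or more UMIs of G2/M genes after thinning taken as the limit, the shares were 38.5%, 28.6% and 12.3% over the Col10a1 groups at E13.5 and 35.8%, 38.6% and 8.33% at E15.5. In reference chondrocytes they made up 39.6% at E13.5 and 35.5% at E15.5. The counting interval of the last group was 5.08 to 23.7% at E13.5 and 3.12 to 17.3% at E15.5, and cells of 1 library are not replicates. The summed level of the G2/M genes was 2068, 1273 and 902 CPM over the Col10a1 groups, against 2736 CPM in reference chondrocytes, at E13.5. At E15.5 it was 2153, 2530 and 865 CPM, against 2887 CPM. The sum was lowest in the last group in both libraries, and in the group without Col10a1 it was also below that of the reference. By share of cells, the group without Col10a1 stood close to the reference: 38.5% and 39.6% at E13.5, then 35.8% and 35.5% at E15.5. This group holds 269 of the 398 chosen cells in the E13.5 library and 141 of 305 in the E15.5 library. Only the last group had a lower share than the reference in both libraries. Whether the other chosen cells had left the cell cycle was not tested.

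Set against the chosen cells with no Col10a1 UMI, those with 5 or more had 690 of 10015 genes past 2-fold higher (6.89%) and 985 lower (9.84%) at E13.5. At E15.5 the counts were 510 of 8626 (5.91%) and 576 (6.68%), and in both libraries 282 of 8565 were higher (3.29%) and 246 lower (2.87%). Ibsp led, at 120 CPM with 5 or more Col10a1 UMIs and 0.549 CPM with none at E13.5 and at 177 and 1.88 CPM at E15.5. It was followed by Pla2g16, a phospholipase, Ddit4l, an inhibitor of mTOR signalling, Slc13a5, a citrate transporter, Mustn1, Aldh1a3 and Irx5, an Iroquois homeobox factor. Slc13a5 stood at 106 and 3.29 CPM at E13.5 and at 62.3 and 0.941 CPM at E15.5. Ucma, Fmod and Lef1 were among the 10 smallest ratios, and these 3 were also lower in the chosen cells than in the reference.

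The Spp1-high cells described here met the rest of the rule, and they are only a part of what it left out. At E15.5 the Col2a1 limit left out 41 other cells with 2 or more UMIs of Ihh plus Panx3. Of these, 32 held 50 or more Spp1 UMIs, and the other 9 held Col10a1 at 3093 CPM and Pth1r at 637 CPM. At E13.5 it left out 15, with Col10a1 at 23.2 CPM. The 14 Spp1-high cells at E15.5 that met the Col2a1 limit held Col10a1 at 20037 CPM, Mmp13 at 1165 CPM, Ibsp at 1806 CPM and Cdkn1a at 609 CPM. The chosen cells with 5 or more Col10a1 UMIs held Mmp13 at 7.09 CPM in that library. Pth1r, at 469 CPM, Ihh, at 325 CPM, and Sox9, at 194 CPM, were lower in the Spp1-high cells than in those chosen cells, and Epyc, at 22.6 CPM, was nearly lost. Of the chosen cells at E15.5, 7 held as much Col10a1 as the Spp1-high cells did in sum or more, between 20085 and 50155 CPM, with 0 to 33 Spp1 UMIs.

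**Figure D5:**
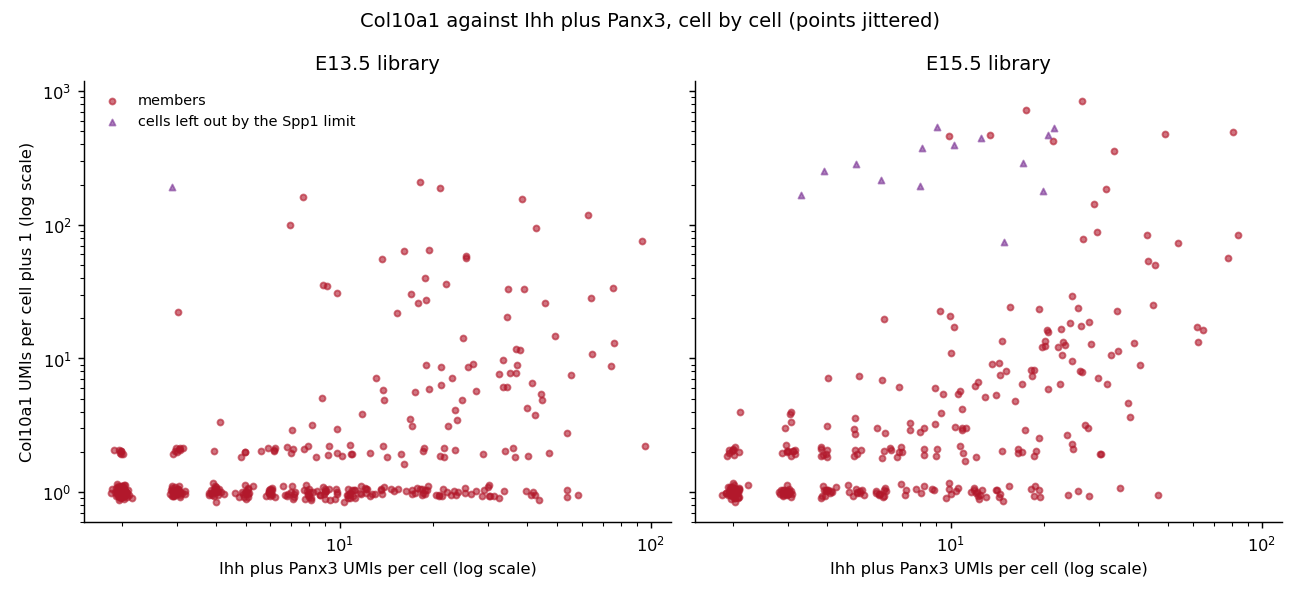
Col10a1 UMIs plus 1 against Ihh plus Panx3 UMIs for each member (circles) and each cell left out by the Spp1 limit (triangles), on log scales with a small jitter, so that the lowest band is 0 Col10a1 UMIs. Most cells lie in the bands of 0 and 1 UMI, and 10 members at E15.5 hold 4544 of the 5906 Col10a1 UMIs.

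Across single cells thinned to 5000 UMIs, the Spearman correlation of Pth1r with Col10a1 was 0.47 over 392 cells at E13.5 and 0.51 over 297 at E15.5, and that of Ihh with Col10a1 0.43 and 0.42. These cells share 1 library and were chosen on Ihh, and the values are given as description.

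Between the stages, the E15.5 library was set against the E13.5 library for the chosen cells, with the reference chondrocytes beside them. Of 11271 genes, 263 were higher at E15.5 (2.33%) and 180 lower (1.6%), against 312 (2.55%) and 111 (0.907%) of 12240 in reference chondrocytes. Stage and library coincide, so they cannot be told apart. The sum of 4 Y-linked genes also differed, at 25.5 CPM in the chosen cells at E15.5 and 84.0 CPM at E13.5, and their part in these ratios was not tested.

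Col10a1 stood at 1214 CPM in Ihh/Panx3 chondrocytes at E15.5 and 264 CPM at E13.5 (4.59-fold), or 2.46-fold without the 10 cells with most Col10a1 in each library. In reference chondrocytes its ratio was larger, 20.8-fold, at 117 CPM at E15.5 and 5.61 CPM at E13.5. With fewer than 50 Spp1 UMIs required of the reference cells, a limit added here after seeing the data, it was 3.11-fold. Ostn stood at 68.6 CPM at E15.5 and 20.3 CPM at E13.5 (3.38-fold), or 4.18-fold without those cells, against a ratio of 1.31 in reference chondrocytes. Uts2b stood at 98.8 and 32.3 CPM (3.06-fold), against 1.47 in the reference. Omd stood at 18.1 and 2.59 CPM (6.99-fold), against 5.89 in the reference on 6 and 1 UMIs. Ibsp turned with the cells counted, at 2.59-fold with all and 0.347 without the 10. Pth1r, Smpd3, Runx2 and Sp7 differed by less than 2-fold between the libraries.

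The other genes with the largest ratios were led by Ccl21a, a chemokine with near-identical copies, at 31.6 CPM at E15.5 and 4.31 CPM at E13.5. Its ratio was 7.34-fold, against 53.2 in the reference. Next were 1500015O10Rik (3.34, against 4.12 in the reference), Crabp1, which binds retinoic acid (3.31, against 1.71), and Nrn1 (3.11, against 2.08). Irx2, an Iroquois homeobox factor (3.01, against 1.55), and Dhx58os, an antisense transcript (3.01, against 2.09), followed. Reads of Dhx58os may be shared with its sense partner, since no source used here states how strand was counted. Among the 10 smallest ratios were those of Tnni1 (0.338), Ydjc, Gm266, Klhl7, Mab21l2, Shmt1, Rpl39l, Lepr and Dusp9 (0.451). Tnni1 and Dusp9, a MAP kinase phosphatase, were also lower in the reference (0.428 and 0.405). Ydjc leaned lower in the reference (0.506), while Rpl39l (1.33) and Lepr (1.10) leaned higher there. S phase genes had a median log2 ratio of -0.65 between the stages in the chosen cells. Of the 20 counted, 2 were past 2-fold lower, Mcm3 and Cdc6, which license replication, against 1.6% of all genes. Their list summed to 1500.5 CPM at E13.5 and 989 CPM at E15.5 in the chosen cells. In the reference the sum was also lower at E15.5, at 1759 and 1427 CPM.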

How the data were processed

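The authors deposited raw UMI counts for each gene in each barcode. Cell Ranger, mm10 and Seurat 2.3.4 are named per the submitters' processing notes, without a Cell Ranger version. The counts are whole numbers with differing totals per cell. The 4 libraries hold 10272 barcodes (1997 to 2884 each) and 15080964 to 35485783 UMIs. Limits of 200 genes and 10% mitochondrial UMIs kept 9958 cells. Between pairs of libraries 8 to 15 barcodes were shared.

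UMIs were summed over the chosen and the reference cells of each library (8121121 and 10339766 in the E13.5 library, 4866373 and 10539416 in the E15.5 library) and divided by each group's total to give CPM. Ratios have exact conditional binomial intervals, levels exact Poisson and shares exact Clopper-Pearson intervals, all at 95%. They cover counting error only, and understate the error of genes whose UMIs sit in few cells. A side with 0 UMIs was given 3 for a bound. Thinning to 5000 UMIs used seed 1 and left out shallower cells, 6 and 8 of the chosen and 52 and 106 of the reference cells at E13.5 and E15.5. No doublet caller was run; sets without the deepest cells and without cells holding markers of other types stand in for it. Free RNA was read from endothelial, macrophage, muscle and epithelial cells, those with 10 or more UMIs of 1 of these lists and Col2a1 under its limit.

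Named genes are the 15 largest and 10 smallest ratios by the weaker library, list genes past 2-fold the same way in both libraries with a list's defining genes, the 10 largest and smallest ratios between stages with at least 100 UMIs, and the markers. Genes of the mitochondrial genome, globins, Y-linked genes and Xist are not named, and a few other genes that the rule names are not reported here. The cells and the 28 lists (524 of 525 genes found) were chosen with earlier results of these data known. Alternatives covered the limits of the rule, depth, reference, scaling, fold and minimum count. The ratio step was tested on simulated counts. Python 3.11.15, numpy 2.4.6, scipy 1.17.1, pandas 2.3.3 and matplotlib 3.10.9 were used.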

Additional observations from a re-analysis of the deposited data

Results flagged for a closer look

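In 4 genes the Ihh/Panx3 chondrocytes were past 2-fold from the reference chondrocytes in opposite directions at the 2 stages. Each rests on few UMIs, and the difference between the stages was not tested. S100a14 had a log2 ratio of 2.93 at E13.5 (18 and 3 UMIs) and -1.41 at E15.5 (4 and 23 UMIs). Spink2 had 1.11 at E13.5 (17 and 10 UMIs) and -3.21 at E15.5 (1 and 20 UMIs). Jade2 had 1.14 at E13.5 (26 and 15 UMIs) and -1.13 at E15.5 (8 and 38 UMIs). Slc26a7 had -1.01 at E13.5 (7 and 18 UMIs) and 1.41 at E15.5 (27 and 22 UMIs).

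The E18.5 library, which is outside the rule, held 27 cells that met the same limits and 239 reference chondrocytes. Col10a1 stood at 880.4 CPM in these 27 cells and 3.95 CPM in the E18.5 reference. Pth1r stood at 988 and 91.3 CPM, Smpd3 at 388 and 5.07 CPM, and Mef2c at 484.5 and 74.4 CPM. Alpl had 41 UMIs in the 27 cells and 0 in the reference. Of the 15 leading genes, 7 were counted there and 6 of them were past 2-fold higher, and 5 of the 5 counted among the 10 smallest were past 2-fold lower. Over all 7505 genes counted there, 416 were past 2-fold higher (5.54%) and 1043 lower (13.9%).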

How the results depend on the processing

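No paired analysis was possible because each stage is 1 library and no replicate numbers are given. The share of kept cells chosen, 14.1% at E13.5 and 11.7% at E15.5, was 22.3% and 18.8% with a limit of 1 UMI of Ihh plus Panx3, 9.87% and 8.20% with 4 UMIs, and 10.4% and 9.58% with 2 per 10000 UMIs. At E13.5 it was 11.04% with Col2a1 of 60 per 10000 and 11.5% without the deepest 5% of cells, and at E15.5 13.1% without cells with markers of other types. Col10a1 was found in 32.4% of chosen cells at E13.5 and in 53.8% at E15.5, in 23.4% and 42.2% with the limit of 1 UMI, in 40.6% and 65.7% with 4, in 19.4% and 36.0% of thinned cells, and in 18.6% and 35.4% with 2 Col10a1 UMIs required. With 2 per 10000 it was 40.1% at E13.5.

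The counts of genes past the fold moved with the fold and the minimum of UMIs. At E13.5, 422 were higher with the limits used, 173 with a minimum of 100 UMIs, 967 at 1.5-fold and 206 at 3-fold, and 519 were lower, against 162, 1466 and 162. At E15.5, 427 were higher, against 172, 997 and 196, and 638 lower, against 203, 1602 and 197. With the limit of 1 UMI of Ihh plus Panx3 the lower genes numbered 307 at E13.5 and 374 at E15.5. Between the stages 263 were higher at E15.5, against 492 with a minimum of 10 UMIs, 50 with 100, 900 at 1.5-fold and 60 at 3-fold, and 180 lower, against 328, 34, 662 and 45.

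Against a reference of like depth the G2/M median was -0.75 at E13.5 and -0.72 at E15.5; the endothelial median was 0.49 at E15.5. Of 320 list medians under an alternative, the other 317 stayed within the limit set for them. Of 843 values of named genes under an alternative, 742 stayed within theirs, 100 moved, and 1 turned: Ibsp at E15.5, at -3.13 without the 10 cells with most Col10a1, an alternative chosen after seeing the data. Where no cause is shown by the alternative's own construction, the cause was not tested. Genes with few UMIs, such as Omd and Tnfaip2, have wide intervals, and depth limits what a cell with 0 UMIs shows.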
